A study of Drosophila melanogaster with 2 samples.

Results

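Polycomb group genes encode the chromatin proteins that keep developmental genes such as the Hox genes silent. The 10 genes described here, chosen by name, are ph-p, ph-d, Pc, Psc, Su(z)2, Sce, E(z), esc, pho and Scm, of 13945 protein-coding genes on the 6 chromosomes that hold peaks. The data are chromatin immunoprecipitation followed by sequencing (ChIP-seq) on whole Drosophila melanogaster prepupae of pooled sexes. The animals came from 1 transgenic line that stably expresses CG6276 with green fluorescent protein (GFP) at its C-terminus, and both libraries were precipitated with an antibody against GFP. They are biological replicates 2 and 4 of this single group. Each label gives sonicated fragments of 200 to 800 bp and an age of 72 days, and the unit of that age is in doubt because fly prepupae form within days of egg laying. The promoter that drives the transgene is not given in the labels, and no control library was analysed here. Peaks from whole animals do not say in which tissue the protein was bound, and strong binding in few cells and weak binding in many cannot be told apart.

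Polycomb proteins work in complexes. In Polycomb repressive complex 1 (PRC1), Pc reads methylated histone H3 through its chromodomain, Sce carries the RING-type ubiquitin ligase activity that acts on histone H2A, Psc and the related Su(z)2 are its RING finger partners, and ph-p and ph-d encode the neighbouring pair of Polyhomeotic proteins. In Polycomb repressive complex 2 (PRC2), E(z) is the histone H3 methyltransferase and esc its WD-repeat partner. The zinc-finger protein Pho binds DNA at Polycomb response elements, the sequences that recruit these complexes in flies, and Scm is another Polycomb group protein that can bind Polyhomeotic. Several PRC1 genes are themselves known to be targets of Polycomb control in flies, ph-p and ph-d among them.

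Summits of the CG6276 fusion in the authors' thresholded list lay in or within 5 kb of all 6 PRC1 genes. None lay there for the genes for E(z), esc, Pho and Scm. A gene was counted when a summit of the authors' list thresholded by the irreproducible discovery rate (IDR, 7326 listed summits) lay in its body or within 5 kb. By that rule 6 of 10 genes were counted, or 60%, against 40.1% of all protein-coding genes. The split between PRC1 genes and the remaining 4 was noticed after the values were seen and was not tested. All summits counted for Pc and Sce lay near starts of other genes, and with a flank of 2 kb Sce was not counted. E(z) had a peak at its start in replicate 4 alone. With 10 genes, several of them neighbours or longer than most, the counts describe these genes only. The PRC1 genes were 1599 to 14998 bp long and the other 4 were 2202 to 9160 bp long, against a median of 2166 bp over protein-coding genes, and a longer gene offers a longer window.

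The 20 summits at these genes fell in 15 separate regions. The deposited lists can hold several summits in 1 interval, so a summit is counted on its own and a region is counted once. The joined windows of the 10 genes spanned 171.7 kb and held 116 listed summits per Mb, against 54.7 per Mb over the 6 chromosomes. These densities are not like for like, since the chromosomes include stretches far from genes. They count summits rather than regions, and no density was computed over the windows of all protein-coding genes. Of the 20 summits 7 were among the strongest 10% of the thresholded list. At least 1 such summit was found at 5 of 10 genes (ph-p, ph-d, Pc, Psc and Sce), against 10.6% of protein-coding genes, a comparison chosen after the data were seen. The strongest summit of ph-d also lies within 5 kb of ph-p, so these 5 genes are not separate units. Of the 10 genes 5 had 3 or more summits (ph-p, ph-d, Psc, Su(z)2 and Sce), against 12.6% of protein-coding genes. The 3 summits of ph-d lay in 1 region and were also counted for ph-p, and the 4 of Sce lay in 2 regions.

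**Figure D1:**
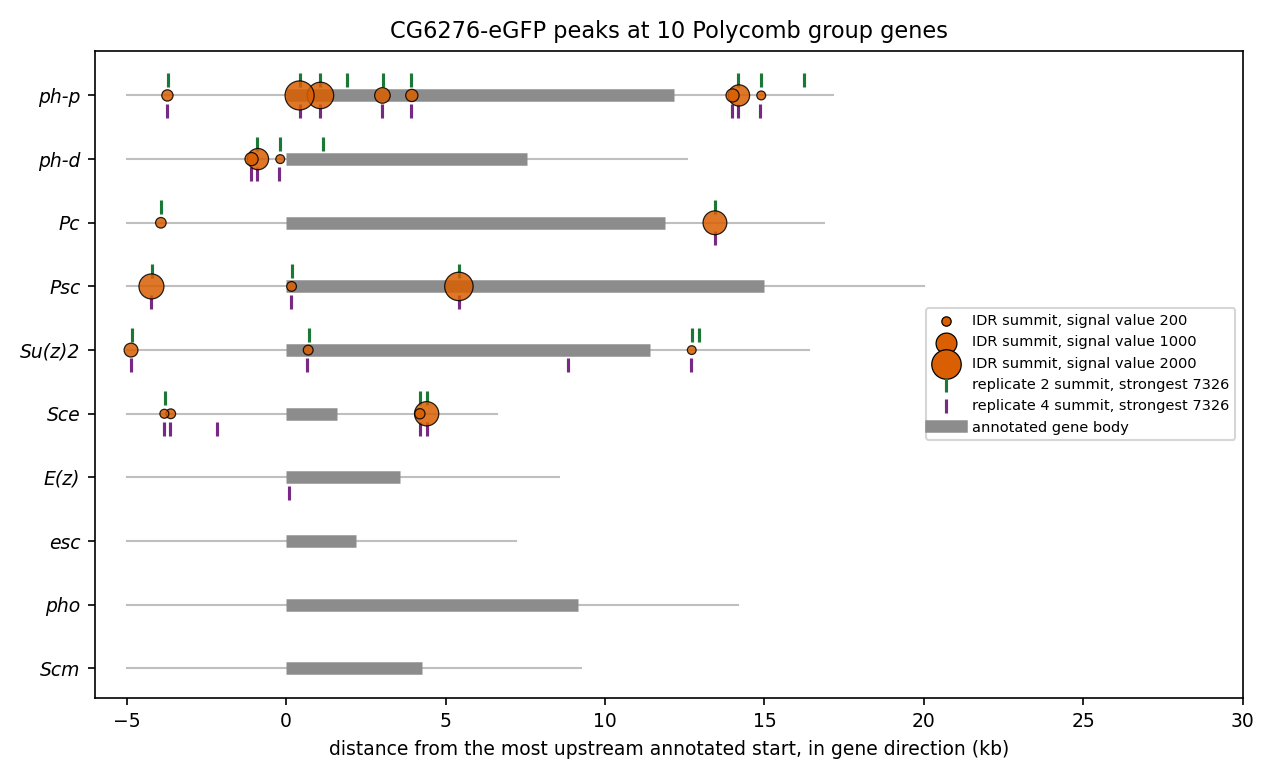
Summits at each Polycomb group gene against the distance in kb from its most upstream annotated start, in gene direction, with 5 kb of flank on each side. Circles are IDR-thresholded summits with area in proportion to signal value, ticks above and below the line are the 7326 strongest summits of replicates 2 and 4, and grey bars are gene bodies. The 6 PRC1 genes carry circles, E(z) has a replicate 4 tick only, and esc, pho and Scm have none.

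All 6 summits counted for Pc and Sce lay within 500 bp of a start of another gene. Of the 20 summits 7 were inside the body of a gene of the list and 13 in a flank. Only 5 lay within 500 bp of a start of their own gene, while 12 lay within 500 bp of a start of some gene. A summit within 500 bp of an own start was found at ph-p, ph-d, Psc and Su(z)2, or 4 of 10 genes, against 13.2% of protein-coding genes.

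The ph genes held the widest peaks and 8 of the 20 summits. ph-p (FBgn0004861, chromosome X, 2126210 to 2138371, minus strand) lies 2923 bp upstream of ph-d (FBgn0004860, chromosome X, 2115727 to 2123286, minus strand), and both are read in the same direction. Sequences at these summits are shown because the wide peaks of the ph genes cover related DNA, and because the motif cores searched can be seen in them. All are dm6, plus strand. Capitals mark the cores GCCAT (Pho), GAGAG (GAGA factor) and CAGTG on either strand. The first pair are the stretch of the ph-p peak aligned to the ph-d promoter summit (chrX:2136942-2137138) and the window of 201 bp around that ph-d summit (chrX:2123372-2123572). The other 3 are windows of 201 bp around the strongest ph-d summit (chrX:2124070-2124270), the ph-p summit 440 bp upstream of an inner start (chrX:2137195-2137395) and an intronic ph-p summit (chrX:2135252-2135452).
ph-p aligned stretch: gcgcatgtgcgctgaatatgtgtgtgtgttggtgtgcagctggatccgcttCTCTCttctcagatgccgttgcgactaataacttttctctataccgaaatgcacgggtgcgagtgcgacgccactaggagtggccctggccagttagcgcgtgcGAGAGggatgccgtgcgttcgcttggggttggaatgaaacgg
ph-d promoter summit: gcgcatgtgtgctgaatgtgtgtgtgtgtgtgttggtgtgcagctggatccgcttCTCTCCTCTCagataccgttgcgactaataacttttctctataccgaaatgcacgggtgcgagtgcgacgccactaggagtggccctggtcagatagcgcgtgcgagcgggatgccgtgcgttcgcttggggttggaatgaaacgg
ph-d strongest summit: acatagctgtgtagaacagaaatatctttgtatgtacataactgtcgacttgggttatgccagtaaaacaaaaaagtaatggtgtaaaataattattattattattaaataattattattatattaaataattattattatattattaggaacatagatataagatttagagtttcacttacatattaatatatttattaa
ph-p upstream of inner start: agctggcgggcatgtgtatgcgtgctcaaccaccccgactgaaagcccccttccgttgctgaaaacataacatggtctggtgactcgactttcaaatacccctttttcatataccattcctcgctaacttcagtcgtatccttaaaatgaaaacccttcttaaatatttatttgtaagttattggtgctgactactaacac
ph-p intron: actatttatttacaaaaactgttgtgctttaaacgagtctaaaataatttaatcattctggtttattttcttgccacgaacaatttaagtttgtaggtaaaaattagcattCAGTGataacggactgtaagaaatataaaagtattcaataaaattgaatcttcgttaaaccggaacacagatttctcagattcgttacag

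In the thresholded list the strongest peak at ph-p spanned 1507 bp across its 5′ end (chromosome X, 2136897 to 2138403) and held 2 listed summits. The stronger summit, 421 bp downstream of the most upstream start and in the 5′ UTR, had a signal value of 1944 and was ranked 69 of 7326. It was ranked 68 in replicate 2 and 61 in replicate 4, each a list of 30000 summits. The other, 440 bp upstream of an inner start, had a signal value of 1613 and ranks of 98 and 89 in replicates 2 and 4. Both summits stood among the strongest 100 of each replicate. Only 5 listed summits in the thresholded list had an interval of 1507 bp or more, and 2 of those 5 are these. The median width was 450 bp, a width that 47.0% of thresholded summits had exactly. Neither replicate listed an interval of 1507 bp here. The 2 summits lay in separate intervals, of 673 and 701 bp in replicate 2 and of 628 and 689 bp in replicate 4.

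Further summits lay in introns of ph-p and upstream of it. An intronic summit 1270 bp downstream of a start had a signal value of 557 and ranks of 1343 and 1275 in replicates 2 and 4 (chromosome X, 2135204 to 2135493). Another, 2192 bp downstream of a start, had a signal value of 345 and ranks of 1942 and 3201 (2134303 to 2134541). The summit 3724 bp upstream had a signal value of 292 and ranks of 2810 and 4093 (2141870 to 2142319), and it lay in an intron of D2hgdh, 592 bp upstream of a start of that gene. These 3 stood well below the peak at the 5′ end in every list.

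The interval between the ph genes held a single wide peak with 3 summits, counted for both genes. It spanned 1330 bp in the thresholded list, just upstream of ph-d (chromosome X, 2123346 to 2124675). Its strongest summit, 884 bp upstream of the ph-d start, had a signal value of 1037 and ranks of 308 and 613 in replicates 2 and 4. The summit 1085 bp upstream had a signal value of 397, with ranks of 12192 in replicate 2 and 2753 in replicate 4. With overlapping peaks joined, its ranks were those of the whole interval, 307 and 604. The summit 186 bp upstream had a signal value of 181 and ranks of 3876 and 7177. In replicate 4 the 3 summits shared an interval of 1259 bp, while replicate 2 listed overlapping intervals of 492 and 877 bp. No thresholded summit lay inside the body of ph-d. Replicate 2 alone listed 2 there, 343 and 570 bp upstream of the inner start, at ranks 3586 and 23717.

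The wide peaks of ph-p and ph-d shared sequence in 3 blocks in the same order. In gene direction the blocks were 81.0% identical over 358 alignment columns, 70.5% over 387 and 91.9% over 357. The strongest summit of each peak lay between the same pair of blocks. That stretch was 98 bp long in the ph-p peak, with the summit 4 bp from the nearer block, and 209 bp long in the ph-d peak, with the summit 92 bp from the nearer block. The other ph-p summit lay in 208 bp between the next pair of blocks, where the ph-d peak had 15 bp. The ph-d promoter summit lay inside the block of 91.9% identity, and no ph-p summit lay in its counterpart.

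**Figure D2:**
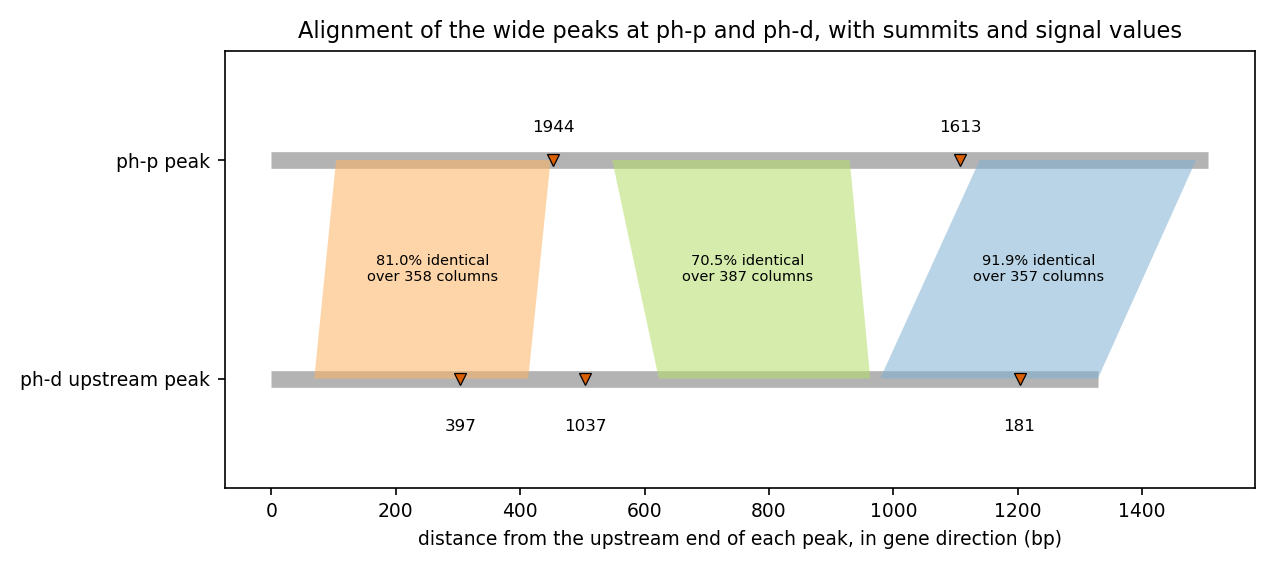
The wide thresholded peak at the 5′ end of ph-p (top bar) and that upstream of ph-d (bottom bar), each drawn from its upstream end in gene direction in bp. Coloured bands join stretches that aligned, with their identity, and triangles are summits labelled with their signal values. The summits of 1944 and 1037 both sit between the left and the middle band, and that of 1613 between the middle and the right band.

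The printed pair of ph-p and ph-d stretches matched at 190 of 201 alignment columns, or 94.5%. GAGAG, on either strand, was found at 2 positions in each, but only the first of them was at the same aligned place. The second lay next to the first in ph-d and further along in ph-p. The window at the strongest ph-d summit had none of the 3 cores, and neither did that at the ph-p summit 440 bp upstream of the inner start. The sources used here do not say how reads matching both genes were placed, and its part in these values was not tested. In the gene bodies 37.6% of ph-p aligned to ph-d, with the longest alignment 92.0% identical over 4480 columns. The 15 peak regions and the E(z) interval described below were also aligned to the 6 chromosomes. Of these 16, the wide ph-p and ph-d peaks were the 2 with another alignment of at least 100 bp under the E-value limit. The most alike of these alignments was 92.2% identical averaged over its whole length, and stretches within it, such as the printed pair, were more alike.

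Psc and Su(z)2 lie 15506 bp apart on chromosome 2R and are read away from each other. The strongest peak at Psc (FBgn0005624, 12965997 to 12980994, minus strand) was in its intron, 5081 bp downstream of a start (12975378 to 12975785). Its signal value was 1859, the 76th rank of the thresholded list, with ranks of 107 and 60 in replicates 2 and 4. A second strong peak lay 4225 bp upstream of Psc in the stretch between both genes (12985017 to 12985411), with a signal value of 1436 and ranks of 172 and 184. Its nearest start was that of the non-coding gene lncRNA:CR44339, 148 bp away. At the Psc start itself, a summit 166 bp upstream of the inner start had a signal value of 219 and ranks of 4752 and 4758. At Psc the intronic and upstream peaks stood far above the one at the start in both replicates.

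The strongest peak at Su(z)2 was weaker than that at Psc in both replicates. Su(z)2 (FBgn0265623, 12996501 to 13007911, plus strand) had its strongest summit 4865 bp upstream, with a signal value of 440 and ranks of 2024 and 1833 in replicates 2 and 4 (12991547 to 12991796). The start nearest to this summit was that of CG33798, 2261 bp away. A summit in the 5′ UTR, 69 bp downstream of a start, had a signal value of 221 and ranks of 2898 and 7300 (12996967 to 12997416). The third lay beyond the 3′ end of the gene, with a signal value of 176 and ranks of 5764 and 6866 (13008996 to 13009445). Between both genes 2 summits were listed, those 4225 bp upstream of Psc and 4865 bp upstream of Su(z)2. Su(z)2 also had the most summits in the pooled list, 17, against 3 in the thresholded list, and Psc had 13 pooled and 3 thresholded summits.

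The strong peak near Pc lay at the start of another gene. Pc (FBgn0003042, chromosome 3L, 21306138 to 21318020, minus strand) had no thresholded summit in its body. A summit 1565 bp beyond its 3′ end had a signal value of 1302, rank 230 in the thresholded list, and ranks of 360 and 157 in replicates 2 and 4 (21304385 to 21304736). It lay 85 bp downstream of a start of CG11309. The summit 3929 bp upstream of Pc had a signal value of 258 and lay 432 bp upstream of a start of Rab26 (21321724 to 21322173). Replicate 2 listed it at rank 3527 and replicate 4 listed no summit inside it. It was the only 1 of the 20 summits not found in both replicate lists.

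The peaks counted for Sce likewise lay at starts of its neighbours. Sce (FBgn0003330, chromosome 3R, 27680431 to 27682029, minus strand) had no thresholded summit in its body or within 500 bp of its start. A summit 2808 bp beyond its 3′ end had a signal value of 1355 and was ranked 204, 203 and 232 in the thresholded list, replicate 2 and replicate 4. It lay 101 bp downstream of a start of Hsdl2 (27677460 to 27677885), and a weaker summit with a signal value of 242 lay 314 bp downstream of the same start, in the coding sequence of Hsdl2. Upstream of Sce, summits with signal values of 218 and 184 lay 313 and 113 bp upstream of a start of CG12880. Replicate 2 had 1 summit inside both of their intervals, at rank 6503, and replicate 4 had ranks of 3265 and 4558. With a flank of 2 kb in place of 5 kb Sce had 0 summits.

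**Figure D3:**
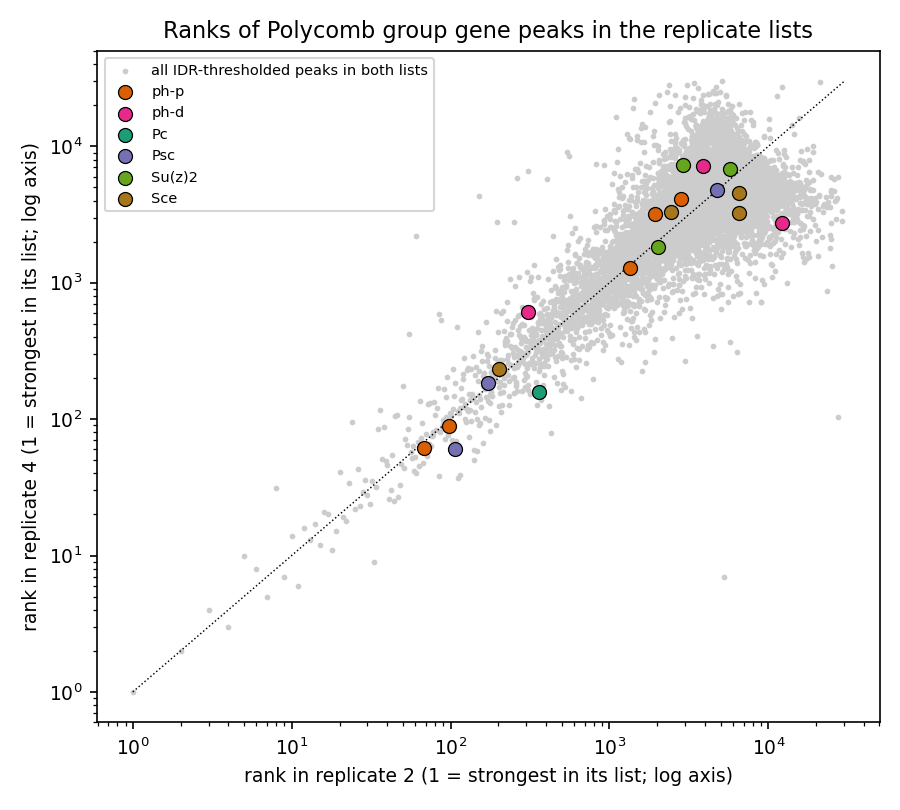
Rank in replicate 2 (x, log axis) and replicate 4 (y, log axis) of each IDR-thresholded peak with a summit of both lists inside it, where 1 is the strongest. Coloured points are summits at the PRC1 genes, grey points are all other peaks, and the dotted line marks equal ranks. The stronger ph-p summit lies near the line at ranks 68 and 61, the strongest Pc summit lies off it at 360 and 157, and the ph-d summit 1085 bp upstream lies furthest from it among the coloured points.

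Most thresholded summits at these genes had a counterpart in both replicate lists. A replicate summit inside the thresholded interval was found in both lists for 19 of 20 summits, against 93.6% of all 7326, and this list was made from the replicate lists, so the share is not independent evidence. The median rank of the matched summits was 2230 in replicate 2 (20 summits) and 2753 in replicate 4 (19 summits). When each replicate was taken alone with its strongest 7326 summits, the genes counted were 6 of 10 in replicate 2, against 43.6% of protein-coding genes. In replicate 4 they were 7 of 10, against 39.8%. The 6 PRC1 genes were counted in both, and the seventh gene in replicate 4 was E(z).

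E(z), esc, pho and Scm had no thresholded summit within 5 kb. E(z) (FBgn0000629, chromosome 3L, 10634575 to 10638130, minus strand) had a peak in replicate 4, 84 bp downstream of its start, with a signal value of 332 in that list and rank 889 of 30000 (10637919 to 10638163). No other list had an entry within 5 kb of the gene, and the nearest pooled summit lay 6604 bp outside its body, at rank 15010. Of the 889 replicate 4 summits at or above that rank, 7 had no overlapping pooled entry (0.787%) and 5 had neither a pooled nor a replicate 2 entry. The cause of this mismatch was not tested.

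The other 3 had at most 1 summit within 5 kb in any list. Replicate 2 listed 1 summit near esc (FBgn0000588, chromosome 2L, 11827204 to 11829405, minus strand) at rank 26177 and 1 near pho (FBgn0002521, chromosome 4, 1172469 to 1181628, minus strand) at rank 23423, with the pho summit 360 bp upstream of the start. Replicate 4 and the pooled list had none within 5 kb of either gene. At esc the 5 kb limit decided this. The replicate 2 summit lay 4984 bp outside its body. The nearest summit lay 5035 bp outside it in replicate 4, at rank 19191, and 5135 bp in the pooled list, at rank 11802. Scm (FBgn0003334, chromosome 3R, 9633359 to 9637611, minus strand) had no entry within 5 kb in any of the 4 lists. The nearest thresholded summits lay 10538 bp from the body of E(z), 20141 bp from esc, 17788 bp from pho and 14799 bp from Scm. Lists of fixed length do not show that the protein is absent from these genes.

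**Figure D4:**
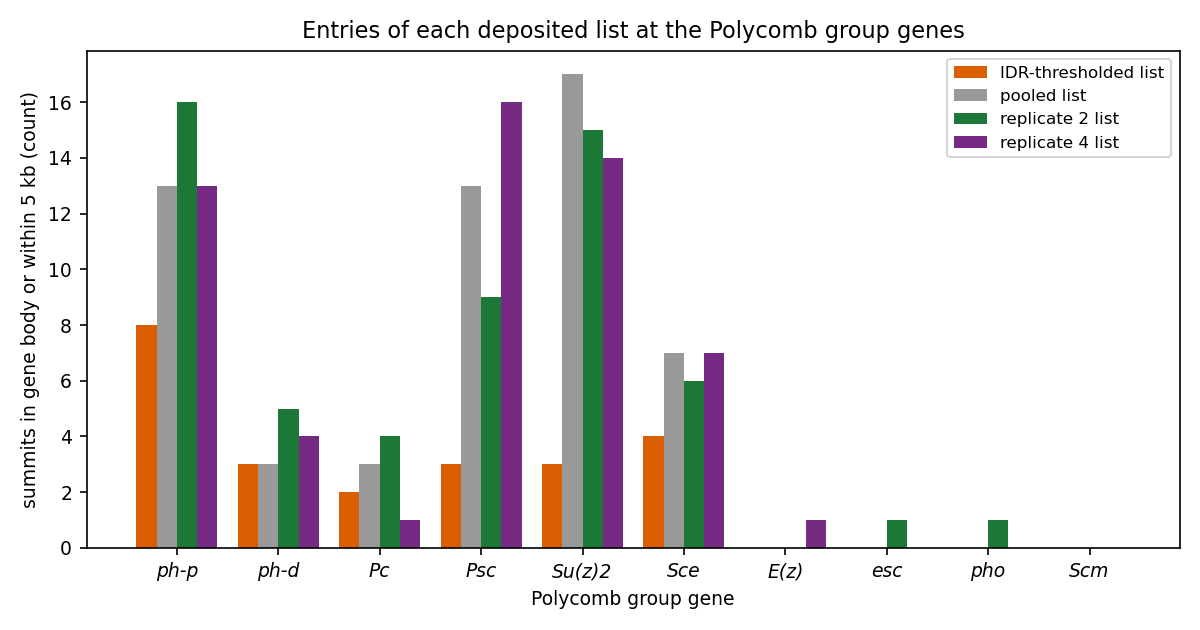
Number of summits in the gene body or within 5 kb (y) at each Polycomb group gene (x) in the IDR-thresholded, pooled, replicate 2 and replicate 4 lists. Su(z)2 has 3 thresholded and 17 pooled summits, ph-p has 8 and 13, and Scm has none in any list.

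The 3 motif cores were about as common at these summits as at thresholded summits in general. In windows of 201 bp the Pho core GCCAT, on either strand, was found at 4 of 20 summits (20.0%), against 24.7% of all thresholded summits, 35.2% of the other pooled summits and 31.8% of protein-coding gene starts. GAGAG, the core of the site of the GAGA factor, a DNA-binding protein encoded by Trl, was found at 6 of 20 (30%), against 28.6%, 24.9% and 22.5%. CAGTG was found at 9 of 20 (45%), against 42.6%, 36.2% and 37.4%, and it was searched because earlier results of these data named it. The summit at the start of Psc held 5 GAGAG matches, the most of the 20, where matches that overlap each other are counted separately. At the Hsdl2 start near Sce the summit lay 1 bp from the centre of a CAGTG match. With 20 windows, some of them close together or from related sequence, these shares do not separate the genes from the other peaks.

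By the rule of a thresholded summit in the body or within 5 kb, other Polycomb genes were counted about as often as genes in general. A larger share of them than of genes in general had a strong summit or several summits. Of 15 further genes of the Polycomb system 7 had a thresholded summit by the same rule (46.7%, against the 40.1% above): Caf1-55, jing, phol, Sfmbt, caly, Kdm2 and corto. A summit within 500 bp of an own start was found at 2 of 15, jing and Kdm2 (13.3%, against the 13.2% above). A summit of the strongest 10% was found at 4 of 15 (26.7%, against 10.6% of protein-coding genes). Also 4 of 15 had 3 or more summits (26.7%, against 12.6%), and jing, in both sets, is 119787 bp long. Among the strongest 7326 summits of replicates 2 and 4, 10 and 6 of the 15 were counted (66.7% and 40.0%, against 43.6% and 39.8%). The strongest summit near phol, the paralogue of pho, had a signal value of 2489 and ranks of 32 and 35 in replicates 2 and 4, and it lay 109 bp upstream of a start of CG3552. That near Caf1-55, a histone-binding subunit of PRC2, had a signal value of 2226 and ranks of 49 and 47, and it lay beyond the 3′ end of Caf1-55, 128 bp upstream of a start of mRpS10. In Kdm2, a histone demethylase gene, the strongest of 6 summits was intronic, with a signal value of 1286 and ranks of 288 and 192.

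Of 7 genes for factors that bind Polycomb response elements, 6 were counted by the same rule (85.7%, against the 40.1% above): Trl, psq, Spps, cg, Dsp1 and grh, with z the exception. This list, like that of the further Polycomb genes, was chosen with earlier results of these data known. The genes counted include long ones, psq with 59393 bp and grh with 41689 bp, whose windows can hold more summits. A summit of the strongest 10% was found at 4 of 7, and 3 or more summits at 4 of 7. These shares were 57.1% each, against 10.6% and 12.6% of protein-coding genes. Trl had 6 summits, the strongest in its own intron with a signal value of 3516 and ranks of 5 and 10 in replicates 2 and 4. psq, which encodes another protein that binds GAGA sites, had 18, the strongest in its 5′ UTR with a signal value of 1562 and ranks of 192 and 90. Dsp1 had a single summit, with a signal value of 1617, 627 bp upstream of its start and in an intron of CG9921.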

How the data were processed

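The authors deposited peak lists, and the signal value of each peak is a score set by their peak caller within that list, per the values in the deposited files. Per the deposited documentation, the lists of single replicates and the pooled list were each made from alignments plus a file of unstated content, and were then the input to the IDR-thresholded list. No caller, aligner, threshold or depth is stated in the sources used here, so no value carries a counting interval. Signal values were used only within a list, and ranks across lists. The 4 lists on genome build dm6 were used here, and those on dm3 were not.

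Peaks were assigned to genes of Ensembl release 115 (BDGP6.54) with Python 3.11.15 and pandas 2.3.3. Sequence came from the RefSeq copy of Release 6, and blastn 2.17.0 was run with an E-value limit of 1e-10. All 9 checks of the assignment, joining, matching and motif rules on made-up intervals gave the planted answer. There is 1 group and no comparison group, so no test was run. The members and lists were chosen with earlier results of these data known, and every member is named. Alternatives varied the flank, the promoter distance, the list, the matching rule and the sequence window.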

Additional observations from a re-analysis of the deposited data

How the results depend on the processing

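Sequencing depth is unknown, and 2 replicates allow no error on a rank. With a flank of 2 kb the 20 summits became 12, those at ph-p 5 of 8, those at Pc 1 of 2 and those at Sce 0 of 4, while with 10 kb Psc had 5. In the stronger 50% of the thresholded list only 1 of the 4 genes kept a summit within 500 bp of an own start. In windows reaching 250 bp to each side of the summits, GCCAT was found at 10 of 20, GAGAG at 14 and CAGTG at 15, against 57.5%, 58.8% and 73.1% of all thresholded summits. The number of the 10 genes counted ranged from 6 to 7 with either replicate left out, the number with a summit at an own start from 4 to 5, and the number of the 15 further Polycomb genes from 6 to 10. GCCAT was then found at 4 to 5 summits, GAGAG at 6 to 8 and CAGTG at 8 to 10. With overlapping peaks joined, the ranks of the ph-d summits 186 and 1085 bp upstream became 307 and 604 in replicates 2 and 4, and those of the weaker Hsdl2 summit near Sce 202 and 230, since each then takes the rank of its whole interval. Of 32 alternatives to the main counts, 27 stayed within 1.5 times the main value. That band is wide for such small counts, and a change from 7 to 10 of the 15 further genes stayed within it. No paired analysis was possible because there is 1 group.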

Other observations

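Several summits near the PRC1 genes were listed among the strongest 7326 of 1 replicate only and had no counterpart in the thresholded list. In Su(z)2 a replicate 4 summit 8219 bp downstream of a start had rank 5985, with rank 19204 in replicate 2 for the nearest summit. Near Sce a replicate 4 summit 2164 bp upstream of the start had rank 5546, and the nearest in replicate 2 had rank 17680. At ph-p a summit 167 bp downstream of its innermost start had rank 5837 in replicate 2, against 8052 in replicate 4 for the nearest one.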
